A study of Mus musculus with 10 samples.

Results

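Plau, Plat, Plaur, Serpine2 and Serpinf1, the genes of both plasminogen activators, the urokinase receptor and 2 serpins, were followed in aortic smooth muscle cells cultured from wild type and KitW/Wv mice, the latter carrying W on one Kit copy and Wv on the other. The 5 genes were chosen by symbol, through the Ensembl IDs that GENCODE M21 gives them, from 54446 genes counted. All 5 were among the 15181 genes that passed the low-count filter. The libraries were 5 of wild type cells (WT) and 5 of KitW/Wv cells (WWv), each from smooth muscle freed from the aorta with collagenase and grown to passage 2. The labels name no further allele and no treatment of the cells. The labels say that the cells came from 5 mice of each genotype, which matches 5 libraries a group, but do not tie a library to a mouse, so p-values measure the spread between these libraries. The sources used here give no strain, age or sex. The series asked which genes differ when these cells lose signals from c-Kit, the stem cell factor receptor. As germline alleles, W and Wv act throughout the animal and not in smooth muscle alone.

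The plasminogen system turns an inactive circulating protein into plasmin, a protease that dissolves fibrin and loosens extracellular matrix. The cut is made by urokinase (Plau), mostly at cell surfaces where the receptor uPAR (Plaur) holds it, and by tissue plasminogen activator (Plat), mostly on fibrin. Serpins are protease inhibitors that act as baits and are consumed with their target. In the vessel wall the system is known for its part in smooth muscle migration and wound repair. Serpine2 encodes protease nexin-1, which inhibits thrombin, urokinase and tissue plasminogen activator, whereas Serpinf1 encodes PEDF, which has the serpin fold but does not inhibit proteases.

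Plaur doubled in WWv cells and Plau rose 1.68-fold, while Plat fell 1.97-fold. Neither Serpine2 nor Serpinf1 passed the test. Thus 3 of the 5 genes passed, against 28.2% of all tested genes, with 2 higher (12.8% of tested genes were) and 1 lower (15.4% were). Plaur and Plat had groups that did not overlap, 1 higher and 1 lower, as 15.9% of tested genes had (8.03% higher, 7.84% lower). Levels are CPM, read counts over the TMM-scaled library total, and the test was edgeR's quasi-likelihood test, two-sided, with a Benjamini-Hochberg adjusted p under 0.05 over all tested genes as the threshold.

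Scaling by library size alone moved the calls over all genes from 1940 higher and 2334 lower to 983 higher and 3599 lower, and the median log2 fold change from −0.01 to −0.09; the calls of the 5 genes stayed.

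Counts totalled 42040255 to 53863661 per library. Kit, the mutated gene, lay at 3.19 to 4.92 CPM in WT and 0.929 to 3.01 CPM in WWv, and fell 2.06-fold, from 4.12 ± 0.629 to 2.00 ± 0.764 CPM (SD, n = 5 each, edgeR adjusted p = 0.0122); counts per gene do not show the alleles themselves. All 7 smooth muscle markers were tested genes; their summed level was 9953 to 13017 CPM in WT and 16760 to 20145 CPM in WWv, and 5 of them rose. Of 7 fibroblast markers 4 fell (summed 438 to 637 CPM in WT, 261 to 420 CPM in WWv). Of all tested genes 12.8% rose and 15.4% fell. The fibroblast marker Cd34 went the other way without passing (21.7 ± 26.7 and 33.3 ± 14.3 CPM, log2 fold change 0.62, edgeR adjusted p = 0.482). The 7 endothelial markers summed to 329 CPM in WT 2 and 56.5 to 98.1 CPM in the other WT libraries, and to 91.2 to 210 CPM in WWv. Of these markers 0 passed (edgeR, and 0 at an unadjusted p under 0.05). With WT 2 set aside, Pecam1 spanned 14.9 to 23.3 CPM in WT and 23.4 to 57.7 CPM in WWv, without overlap. Cdh5 (19.8 to 30.9 and 29.9 to 76.3 CPM), Emcn (12.2 to 27.5 and 25.5 to 60.2 CPM) and Tie1 (4.13 to 6.32 and 5.90 to 13.9 CPM) overlapped little. Kdr, Tek and Vwf had negative log2 fold changes with all libraries (−0.41, −0.32 and −0.63). The 0 calls therefore do not show equal endothelial RNA. Macrophage markers summed to 20.5 to 41.1 CPM in WT and 20.7 to 25.6 CPM in WWv, with Adgre1 and C1qa below the filter. With WT 2 (20.5 CPM) set aside, WT spanned 27.7 to 41.1 CPM, above every WWv library. Of the 5 tested markers 0 passed. Csf1r (−0.58), Lyz2 (−0.49) and Cd14 (−0.63) had an unadjusted edgeR p under 0.05, while Cd68 (−0.29) and Ptprc (0.40) did not. The 0 calls do not show equal macrophage RNA. The 5 mast cell markers were all below it, Fcer1a at 0 in every library, and the 5 glial markers reached at most 12.3 CPM in sum. On the first principal component WT 2 (20.2) lay among WWv (11.5 to 33.4), away from the other WT libraries (−51.1 to −29.1). WWv 1 departed from its group in genes named later. Some results, though not those of every gene named, are therefore also given without WT 2, WWv 1 or both. In these bulk libraries fewer cells of a type and less RNA per cell cannot be told apart.

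**Figure D1:**
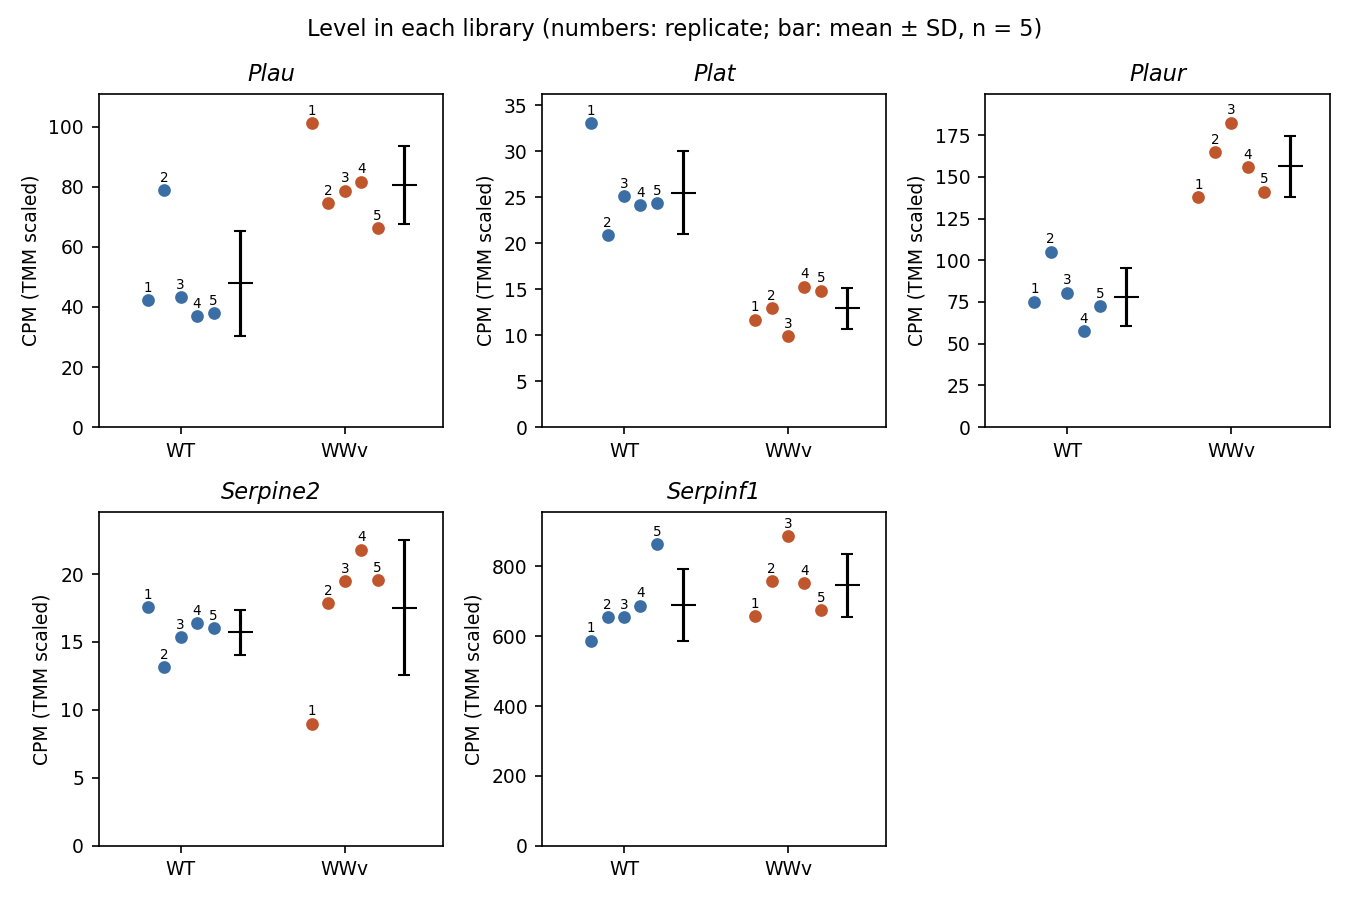
Level of the 5 genes in each library, in TMM-scaled CPM on axes that start at 0; points are libraries with their replicate number, bars are mean ± SD (n = 5). WWv and WT do not overlap for Plat and Plaur, and WT 2 lies among the WWv libraries for Plau.

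Plau, the urokinase gene (ENSMUSG00000021822.3, chromosome 14, 20836660 to 20843385, plus strand of mm10), measured 42.2, 79.0, 43.2, 36.8 and 38.0 CPM in WT 1 to 5. The corresponding WWv values were 101, 74.6, 78.6, 81.6 and 66.2 CPM. All 5 WWv libraries lay above the WT mean, and WT 2 alone reached into their range. The means were 47.8 ± 17.6 and 80.4 ± 13.0 CPM (n = 5 each), a log2 fold change of 0.75 ± 0.20 SE (edgeR adjusted p = 0.0202). Without WT 2 the remaining WT libraries spanned 36.8 to 43.2 CPM, the groups no longer overlapped and the change was 1.01 (adjusted p = 6.61e-05). The call was lost without WT 1 (0.71, adjusted p = 0.0510) or without WT 3 (0.72, adjusted p = 0.0508).

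The Plau level ran with the summed endothelial markers inside each group. Pecam1, Cdh5 and Emcn made up most of that sum (90.6, 107 and 96.2 of 329 CPM in WT 2). The low markers did not all follow: WWv 1, highest in Plau, had the lowest Vwf of WWv (1.26 CPM) and the highest Tek (1.91 CPM). With group means subtracted, log2 Plau and the log2 sum of the 7 endothelial markers had r = 0.93 and rho = 0.90 over 10 libraries, and r = 0.79 over 8 without WT 2 and WWv 1. With the smooth muscle, fibroblast and macrophage sums r was −0.13, −0.23 and −0.56 over 10 libraries, and −0.09, −0.54 and 0.28 over the 8. The libraries share depth and culture, and the part of endothelial RNA in the Plau difference was not tested.

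**Figure D2:**
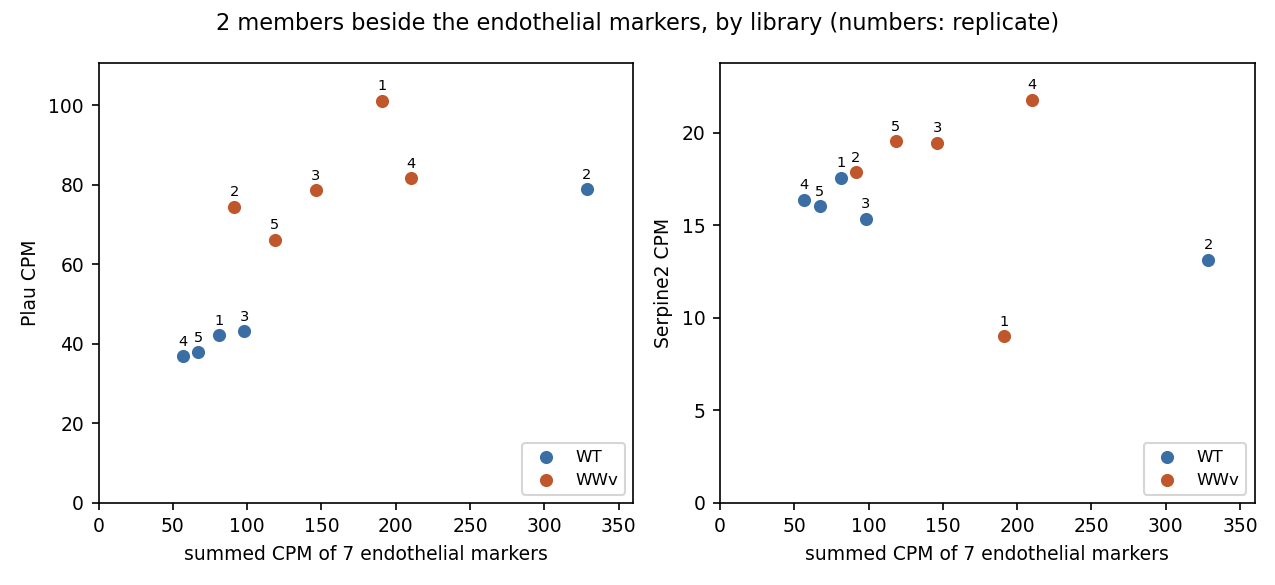
Plau (left) and Serpine2 (right), in CPM, against the summed CPM of 7 endothelial markers in the same library; points are libraries with their replicate number, WT and WWv in separate colours. WT 2 has the highest marker sum, 329 CPM, and WWv 1 the highest Plau and the lowest Serpine2 level.

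Plat, the gene of tissue plasminogen activator (ENSMUSG00000031538.6, chromosome 8, 22757727 to 22782844, plus strand), measured 33.1, 20.9, 25.1, 24.1 and 24.4 CPM in WT 1 to 5. WWv 1 to 5 gave 11.7, 12.9, 9.86, 15.3 and 14.8 CPM. WT 2, the lowest of WT, was still above WWv 4, the highest of WWv, so that the groups did not overlap. The means were 25.5 ± 4.53 and 12.9 ± 2.24 CPM (n = 5 each), a log2 fold change of −0.98 ± 0.14 (edgeR adjusted p = 0.00116). In all, 6.16% of tested genes had a larger absolute change. Within groups log2 Plat ran against the smooth muscle sum (r = −0.54, rho = −0.68, 10 libraries; r = −0.68 without WT 2 and WWv 1), which was higher in WWv. With the fibroblast sum, which was lower in WWv, it had r = 0.27 and rho = 0.19 (r = 0.39 without WT 2 and WWv 1). With the endothelial and macrophage sums it had r = −0.31 and 0.35 (0.18 and 0.06 without WT 2 and WWv 1). The part of any of these cells in the fall of Plat was not tested.

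Plaur, the gene of the GPI-anchored urokinase receptor (ENSMUSG00000046223.10, chromosome 7, 24462484 to 24475968, plus strand), stood at 75.1, 105, 80.5, 57.6 and 72.4 CPM in WT 1 to 5. In WWv 1 to 5 it stood at 138, 165, 182, 156 and 141 CPM. The lowest WWv library, WWv 1, was above the highest WT library, again WT 2. The means were 78.2 ± 17.3 and 156 ± 18.2 CPM (n = 5 each), a log2 fold change of 1.00 ± 0.14 (edgeR adjusted p = 0.00105). Without WT 2 it was 1.13. Within groups log2 Plaur had r = −0.26 and rho = −0.01 with the macrophage marker sum (10 libraries; r = 0.49 without WT 2 and WWv 1). It had r = 0.69 and rho = 0.44 with the endothelial sum (r = 0.53 without these) and ran against the fibroblast sum (r = −0.83, rho = −0.90; r = −0.87 without these). With the smooth muscle sum it had r = 0.11 (r = 0.34 without WT 2 and WWv 1). The part of these cells in the rise of Plaur was not tested.

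Short motifs were searched in the 250 bases before a start site, and the RefSeq promoter table (GRCm38.p6) held 3 of the 5 genes, Plaur, Serpine2 and Serpinf1. The sequence of Plaur, the receptor gene that doubled, is set beside that of Serpine2, which did not pass the test. Capitals mark TGANTCA, the AP-1 motif, and GGGCGG, the GC box; both strands were searched, and adjoining GC boxes share bases or touch. Bases that GENCODE places in an exon are left off, 31 of the 250 in Serpine2. The Serpine2 window lies before an internal RefSeq start, inside the gene's span and downstream of the outermost start that GENCODE gives it.
Plaur, chr7:24462233-24462482, plus strand: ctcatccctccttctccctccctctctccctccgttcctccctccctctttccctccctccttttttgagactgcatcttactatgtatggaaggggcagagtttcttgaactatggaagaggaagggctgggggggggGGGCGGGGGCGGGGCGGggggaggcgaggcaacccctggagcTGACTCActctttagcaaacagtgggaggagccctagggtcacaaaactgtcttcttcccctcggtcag
Serpine2, chr1:79858697-79858915, minus strand: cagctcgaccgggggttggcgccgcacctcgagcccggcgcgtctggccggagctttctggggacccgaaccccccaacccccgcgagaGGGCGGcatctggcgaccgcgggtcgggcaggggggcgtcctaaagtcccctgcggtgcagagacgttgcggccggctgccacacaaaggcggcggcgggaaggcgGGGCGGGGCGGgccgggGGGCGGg

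The Plaur sequence holds 1 AP-1 motif, 69 to 63 bases before the start, and 3 GC boxes between 111 and 95 bases before it. An AP-1 motif lies in this 250-base window in 6.75% of the 32851 promoters listed, and a GC box in 32.7%. The full Serpine2 window holds 6 GC boxes and no TGANTCA, and 78.8% of its bases are G or C, against 59.6% for Plaur and a median of 52.4%. Neither motif was found in the Serpinf1 window. The TATA box TATAAA, the E box CACGTG and the cyclic AMP response element TGACGTCA were searched too, on both strands, and none of the 3 windows holds one; they occur in 12.4%, 6.02% and 1.55% of the promoters. A match describes the letters only.

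Serpine2, the gene of protease nexin-1 (ENSMUSG00000026249.10, chromosome 1, 79794197 to 79861180, minus strand), stood at 17.6, 13.2, 15.4, 16.4 and 16 CPM in WT 1 to 5. In WWv 1 to 5 it stood at 9.00, 17.9, 19.5, 21.8 and 19.5 CPM. WWv 2 to 5, 4 libraries, lay above every WT library, and WWv 1 had the lowest level of all 10 libraries. The means were 15.7 ± 1.63 and 17.5 ± 4.97 CPM (n = 5 each), a log2 fold change of 0.16 ± 0.19 (edgeR adjusted p = 0.562). Without WWv 1 the change was 0.33 and passed (edgeR adjusted p = 0.0205), and without both WWv 1 and WT 2 it was 0.26 (edgeR adjusted p = 0.0109). Within groups log2 Serpine2 had r = −0.13, −0.46, −0.35 and 0.15 with the smooth muscle, fibroblast, endothelial and macrophage sums over 10 libraries. Without WT 2 and WWv 1 r was −0.31, −0.10, 0.67 and −0.29.

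Serpinf1, the gene of PEDF, a secreted factor known for restraining new vessels (ENSMUSG00000000753.15, chromosome 11, 75409769 to 75422701, minus strand), stood at 587, 654, 656, 688 and 863 CPM in WT 1 to 5. In WWv 1 to 5 it stood at 658, 757, 887, 753 and 675 CPM. The groups overlapped over most of their range. The means were 690 ± 104 and 746 ± 90.7 CPM (n = 5 each), a log2 fold change of 0.11 ± 0.11 (edgeR adjusted p = 0.464). Within groups it followed the smooth muscle marker sum (r = 0.82, rho = 0.59, 10 libraries; r = 0.91 without WT 2 and WWv 1), with WT 5 and WWv 3 the highest of their groups in both; the part of these cells in its level was not tested. With the fibroblast, endothelial and macrophage sums Serpinf1 had r = −0.25, −0.23 and −0.05 over 10 libraries. Serpinf1 was the 164th most abundant gene in WT and the 165th in WWv.

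None of the 5 genes shares exon bases with another gene on either strand in GENCODE M21. Counts ran from 400 (Serpine2 in WWv 1) to 36866 (Serpinf1), so counting error was small beside the spread between libraries.

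Levels of different genes were compared as CPM per kilobase of exon. In WT the order was Serpinf1 (292 ± 44.0), Plaur (29.9 ± 6.61), Plau (20.2 ± 7.44), Plat (4.09 ± 0.726) and Serpine2 (1.89 ± 0.197), with n = 5 each. In WWv it was Serpinf1 (316 ± 38.5), Plaur (59.7 ± 6.96), Plau (34.0 ± 5.48), Serpine2 (2.12 ± 0.600) and Plat (2.07 ± 0.359). Plaur was above Plau in each of the 10 libraries, although their levels in WT overlapped, and Plat and Serpine2 did not differ beyond their spread in WWv. With the longest transcript as the length, Serpine2 rose to 4.63 in WT and 5.17 in WWv, and Plat to 6.31 and 3.20, so that the mean of Serpine2 was above that of Plat in WWv.

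**Figure D3:**
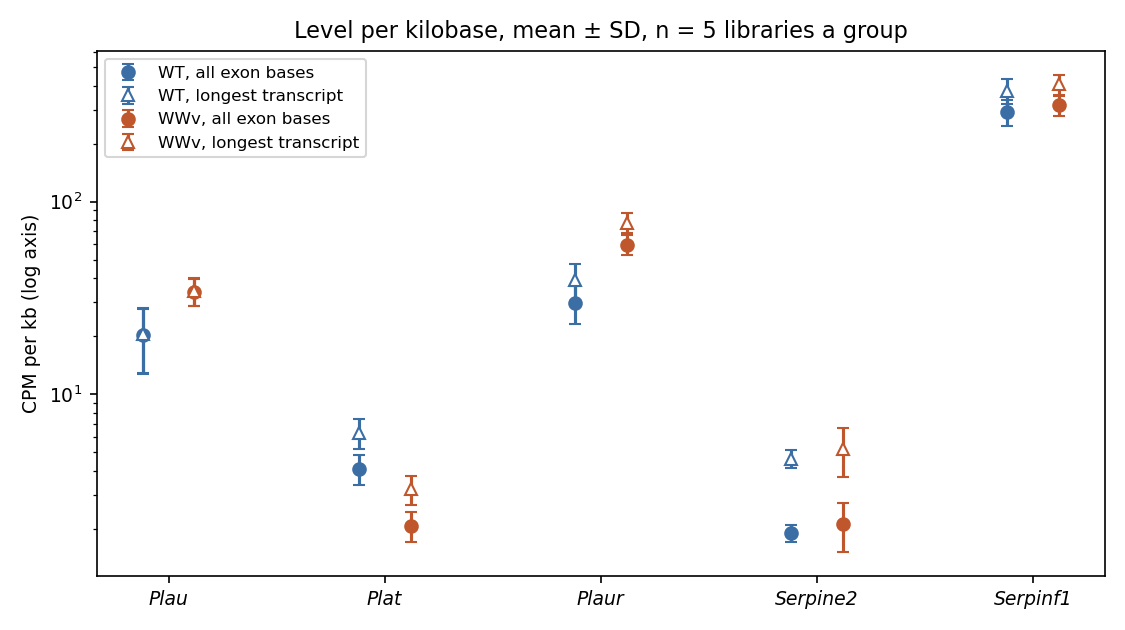
Level per kilobase on a log axis, mean ± SD of 5 libraries, for WT and WWv; filled circles use all exon bases of a gene and open triangles its longest transcript. Plat and Serpine2 sit lowest and cross between groups, and Serpinf1 lies above the other 4 genes.

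The balance between activators and between activator and inhibitor was described by log2 ratios of these levels within each library, which no scaling factor enters. Serpine2 was the only inhibitor used, so the ratios do not give the whole balance. Serpinb2, a serpin of the plasminogen list described below, stood at 3.95 ± 3.85 CPM in WT (10.4 CPM in WT 2) and 6.56 ± 1.11 CPM in WWv. It did not pass (log2 fold change 0.73, edgeR adjusted p = 0.313). Plau over Plat was 1.75, 3.32, 2.18, 2.01 and 2.04 in WT 1 to 5 and 4.51, 3.93, 4.39, 3.82 and 3.56 in WWv 1 to 5. The groups did not overlap, and in geometric mean the Plau level was 4.79 times that of Plat in WT and 16.5 times in WWv. These multiples depend on the gene lengths used. The mean log2 Plau over Plat was 2.26 in WT and 4.04 in WWv with all exon bases, and 1.65 and 3.43 with the longest transcript. The difference between the groups, 1.78, does not depend on the length. Plat over Serpine2 was 0.97 to 1.32 in WT and −0.57 to 0.79 in WWv, also without overlap, with WWv 1 nearest to WT. Plau over Serpine2 overlapped (2.98 to 4.39 and 3.57 to 5.30), its highest values being those of WT 2 and WWv 1. Plau over Plat was chosen after its values were seen, and these ratios carry no test.

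**Figure D4:**
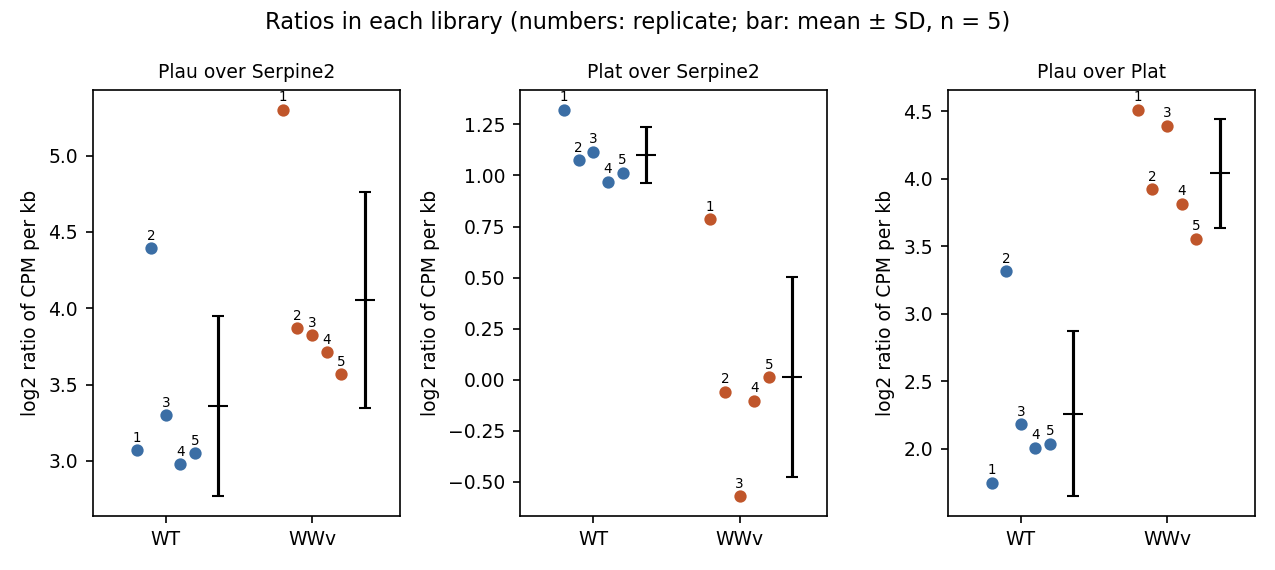
Log2 ratios of CPM per kilobase in each library; points are libraries with their replicate number, bars are mean ± SD (n = 5), and the panels have separate axes that do not start at 0. The groups are apart for Plau over Plat and Plat over Serpine2, and WT 2 and WWv 1 are the highest of their groups for Plau over Serpine2.

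Within groups, Plau and Plaur deviated together (r = 0.66 and rho = 0.56 with group means subtracted, 10 libraries; r = 0.80 over 8 without WT 2 and WWv 1). Plau and Serpine2 deviated in opposite directions (r = −0.57, rho = −0.26), a relation that rested on WT 2 and WWv 1, without which r was 0.49. The remaining pairs of the 5 genes had r between −0.48 and 0.41. Without WT 2 and WWv 1, Plat and Serpinf1 went from −0.48 to −0.75 and Plau and Plat from −0.44 to −0.0015. All are descriptions over libraries that share depth and culture.

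The genes most like each of the 5, among 8722 protein coding genes with a mean of at least 10 CPM, were ranked by Pearson r of log2 CPM over the 10 libraries with group means subtracted. For Plau they were Fkbp4 (r = 0.99), Procr (0.99) and Thy1 (0.98), and for Plaur Dera (0.99), Slc20a1 (0.98) and Eaf1 (0.97). For Plat they were Atg101 (0.93), Aldh1a1 (0.93) and Nnmt (0.92), for Serpinf1 Slc6a17 (0.97), Ugcg (0.96) and Kif1a (0.92), and for Serpine2 Numb (0.94), Bpgm (0.94) and Tollip (0.93). Without WT 2 and WWv 1 the r of the 3 nearest to Serpine2 fell to between 0.46 and 0.66, and that of the other 12 was between 0.91 and 0.98. The genes were picked as the highest of 8722 on these same libraries, so selection alone raises r. The libraries left were also used in the picking, so the second r is no independent test.

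Around the 5 genes, Plg itself, the plasminogen gene, had 0 counts in all 10 libraries, which allows up to 3 counts each, or 0.0557 to 0.0714 CPM (counting error only). Of 17 tested genes that bind, inhibit or clear plasminogen and its activators 1 rose and 3 fell, 23.5% against 28.2% of all tested genes (median log2 fold change −0.02, and −0.01 over all tested genes). Igf2r, a receptor that binds plasminogen and uPAR, rose (0.38). A2m, the broad protease trap alpha-2-macroglobulin (−3.86, adjusted p = 0.0114), Serping1, the C1 inhibitor (−1.12, adjusted p = 0.0222), and Eno1, an enolase that binds plasminogen at the cell surface (−0.33, adjusted p = 0.00405), fell. A2m was at 0.22 CPM in WT 2, within the WWv range, and Serping1 at 91.1 CPM, below every WWv library (96.2 to 154 CPM). The call of Serping1 was lost without WT 4 (−0.94), WT 5 (−0.99) or WWv 2 (−1.06). The call of A2m was lost with limma-voom (−3.53, adjusted p = 0.183). Without WT 2 the list had 9 calls among 17 genes, where 7127 of 15423 tested genes passed. The plasminogen receptor genes Plgrkt (−0.16), Anxa2 (0.32) and S100a10 (0.10) and the clearance receptor gene Lrp1 (0.11) did not pass, though without WT 2 Anxa2 (0.46) and Plgrkt (−0.20) did. Both also passed with sample quality weights (0.42 and −0.21) and without WT 2 and WWv 1 (0.43 and −0.22), and Plgrkt with library size only (−0.24) and at 1 CPM in 5 libraries (−0.18). Eno1 and these 4 were chosen after their values were seen, and Anxa2 shares exon bases with a gene on the opposite strand.

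Among genes whose products are cut or activated by the system, or are its matrix substrates, 6 of 17 tested rose and 3 fell, 52.9% in all against 28.2% of all tested genes (median 0.29). With library size only 3 rose and 3 fell, where 983 of all genes rose and 3599 fell. Pdgfc, the growth factor that tissue plasminogen activator activates, rose from 11.5 ± 1.84 to 20.8 ± 3.73 CPM (log2 fold change 0.85 ± 0.15, edgeR adjusted p = 0.00252), and Pdgfd, which urokinase can activate, fell from 41.9 ± 3.41 to 33.8 ± 2.47 CPM (−0.31 ± 0.07, adjusted p = 0.00841). Hgf, a further urokinase substrate, fell by 0.66, and Mmp3, the stromelysin zymogen that plasmin activates, fell by 2.69 (adjusted p = 0.0008). Fgf2, released from matrix by plasmin, rose by 0.57, and Tgfb1, whose latent form plasmin can activate, by 0.53. Pdgfd and Tgfb1 were chosen after their values were seen. Pdgfc and Fgf2 share exon bases with genes on the opposite strand, and Hgf and Fgf2 with one on their own, so their reads are uncertain.

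Of 12 tested surface partners of uPAR 5 rose and 2 fell, 58.3% against 28.2% of all tested genes (median 0.29). Itga5, the fibronectin receptor subunit, rose by 0.60 ± 0.11 (edgeR adjusted p = 0.00304) and Cav1, caveolin, by 0.68, while Egfr fell by 0.89 ± 0.15 (adjusted p = 0.00201) and Il6st, the shared cytokine receptor gp130, by 1.17. These 4, named for the size of their change, had groups that did not overlap, as 6 of the 12 had and 15.9% of all tested genes. The vitronectin gene Vtn had 5 counts in all and was not tested. Of 6 tested genes of the LU domain family to which uPAR belongs, Cd59a, a complement inhibitor (0.58), rose and Lypd1 (−1.73) and Ly6e (−0.27) fell (50.0% against 28.2%, median −0.24). The call of Ly6e was lost without WWv 3 (−0.26) or WWv 5 (−0.25), and Lypd1 shares exon bases with Gpr39. Lypd1 stood at 4.94 CPM in WT 2, within the WWv range (3.00 to 5.12 CPM).

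Serpine2 also controls thrombin, and of 10 tested genes of thrombin, its receptors and other control proteins 4 rose, against 12.8% of all tested genes, and 0 fell, against 15.4% (edgeR; median 0.36; 0 fell at an unadjusted p under 0.05, and 0 by DESeq2 or limma-voom). F2r, the thrombin receptor PAR1, rose from 535 ± 27.2 to 778 ± 94.3 CPM (0.54 ± 0.08, adjusted p = 0.00133) without overlap, and Htra1, a secreted serine protease, by 0.94 (adjusted p = 0.0110). F2rl1, PAR2, rose by 0.85 (lost without WWv 2, 0.76, or WWv 4, 0.76), and the protease gene Prss23 by 0.34 (lost without WT 4, WT 5, WWv 2 or WWv 3, at 0.32 to 0.33, and with library size only, at 0.25; it overlaps an antisense gene). Thbd, thrombomodulin (−0.09), and Procr, the endothelial protein C receptor (0.19), did not pass. Procr stood at 154 CPM in WT 2 and 24.6 to 43.3 CPM in the other WT libraries, and without WT 2 it passed at 0.99 (adjusted p = 0.00763). Of the 4, F2r alone is named here as a thrombin receptor, so the rises are not a count of thrombin receptors. Htra1 and Prss23 are serine proteases and not receptors or inhibitors of thrombin, and both are counted again among the serine proteases. The list had 8 calls without WT 2 (7 higher, 1 lower), where 3507 of 15423 tested genes rose and 3620 fell. It had 2 calls without WWv 2 (2 higher, 0 lower), where 1292 of 15487 tested genes rose and 1721 fell.

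Of 5 tested genes for reported PEDF receptors, 0 passed in edgeR, against 28.2% of all tested genes (median −0.07). At an unadjusted p under 0.05 there were 0, and 0 passed by DESeq2 and by limma-voom. With limma-voom and sample quality weights 3 passed, where 7401 of 15181 genes did. Without WT 2 the list had 2 calls, where 7127 of 15423 genes passed. Plxdc2 stood at 183 ± 22.5 and 174 ± 22.7 CPM and Rpsa, whose exons hold a further gene on the same strand, at 940 ± 69.5 and 881 ± 64.1 CPM.

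Of 16 other serpin genes tested, out of 58, 0 rose and 6 fell (edgeR; 37.5% against 28.2% of all tested genes, 15.4% lower; median −0.15; 1 was higher at an unadjusted p under 0.05, 2 rose by DESeq2 and 0 by limma-voom). Serping1, one of the 6, is also among the 3 falls of the plasminogen list. Serpina3g fell by 2.01 ± 0.23 (edgeR adjusted p = 0.000417) without overlap, and Serpinb1a, an inhibitor of neutrophil proteases, by 1.74 (adjusted p = 0.0134). Serpina3n, an antichymotrypsin (−2.10), and Serpinb9, the granzyme B inhibitor (−1.19), passed with all libraries, but Serpina3n did not when any 1 library other than WT 2, WT 3 and WWv 5 was left out (−2.05 to −1.80), with limma-voom (−1.69, adjusted p = 0.111) or with the replicate number as a block (−1.81, adjusted p = 0.0714), nor Serpinb9 when WT 4, WT 5 or any of WWv 1 to 4 was (−1.20 to −0.98). In WT 2 Serpina3n stood at 15.6 CPM against a WT mean of 195 CPM, and Serpinb1a (21.3 CPM) and Serpinb9 (53.9 CPM) lay within the WWv range there. The fibroblast marker Dcn was likewise at 21.2 CPM in WT 2 and 93.1 to 184 CPM in the other WT libraries. Lum, Dpt, Pi16 and Ly6a were also lowest of WT in WT 2. Pdgfra was not (284 CPM in WT 2, 250 to 298 CPM in the others), and Cd34 was highest there (69.0 CPM, 6.18 to 13.4 CPM in the others). The part of fibroblasts in these falls was not tested. The calls of the list, all falls, numbered 2 without WT 4 or WWv 2 and 3 without WT 5, WWv 1 or WWv 3. Over all tested genes 1738 of 15310 fell without WT 4 and 1721 of 15487 without WWv 2. The falls were 1790 of 15359 without WT 5, 2304 of 15476 without WWv 1 and 1751 of 15496 without WWv 3. The mouse Serpina3 and Serpinb clusters hold near-identical copies, between which reads may be split. Of 19 tested serine protease genes of the Prss, Tmprss, Klk and Htra families and related genes 3 rose, Htra1 and Prss23 among them, and 2 fell (26.3% against 28.2% of all tested genes, median −0.16; 2 rose and 6 fell with library size only). The falls were those of Prss35 (−1.78) and Htra3 (−0.92, adjusted p = 0.00217). There were 9 calls of 20 tested genes without WT 2 (3 higher, 6 lower), where 3507 of all 15423 rose and 3620 fell. There were 3 of 20 without WWv 3 (1 higher, 2 lower), where 1327 of all 15496 rose and 1751 fell.

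**Figure D5:**
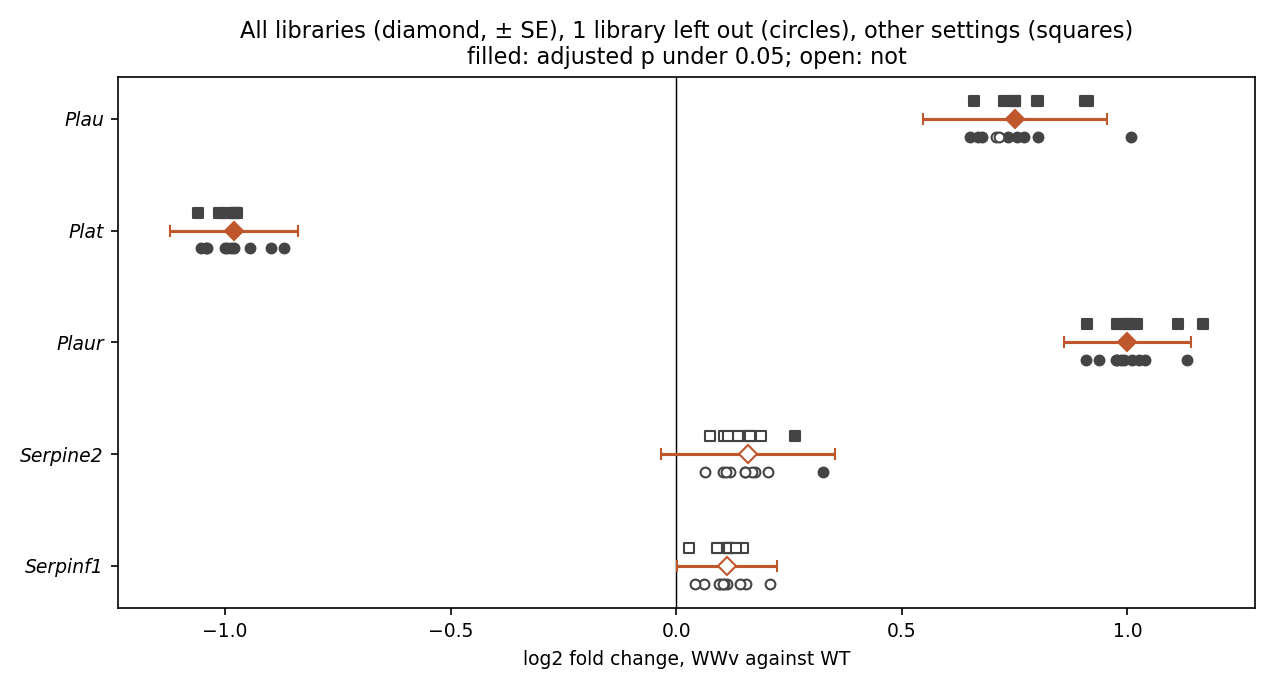
Log2 fold change of the 5 genes, WWv against WT, with all libraries (diamond, ± SE), with 1 library left out (circles) and under other settings (squares); filled symbols have an adjusted p under 0.05. Plat and Plaur pass in every fit shown, Plau in all but 2 and Serpinf1 in none, and Serpine2 passes when WWv 1 is left out, alone or with WT 2.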

How the data were processed

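RNA was sequenced in 10 libraries of mouse aortic smooth muscle cells, 5 WT and 5 WWv. The authors deposited raw counts per gene, whole numbers for 54446 versioned Ensembl IDs. Per the submitters' processing notes, bcl2fastq 2.17, Trim Galore 0.4.3, STAR 2.5.2a and mm10 were used; counting tool, strand setting and annotation release are each not given in the sources used here. Symbols, positions and exon lengths came from GENCODE M21 (GRCm38), which matched 54409 IDs without version.

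edgeR 4.0.16 under R 4.3.3 fitted the counts with a group term alone, with TMM, filterByExpr at a minimum count of 10 and Benjamini-Hochberg adjustment over 15181 genes, at 0.05. Standard errors are the absolute log2 fold change over the square root of F. Log2 CPM used a prior count of 2. In simulated WWv against WT data over 15007 genes 76.1% of 1.5-fold, 86.6% of 2-fold and 97.0% of 4-fold changes were recovered. The changes were set in 67, 67 and 66 genes, and 11 of the 184 calls were false. The real data gave 4274 calls, so the recovery holds for the simulated setting only. Totals of 42040255 to 53863661 counts left replicate spread (common coefficient of variation 0.161) as the limit of precision.

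The 5 genes, the lists and the tests were chosen with earlier results of these data known. Of each list the rule named up to 4 genes past the threshold with the largest change and a mean of at least 1 CPM, and up to 2 that did not pass; the text names some of the latter, and Eno1, Plgrkt, Anxa2, S100a10, Lrp1, Tgfb1 and Pdgfd were added after their values were seen. Alternatives were other scalings and filters, robust dispersions, libraries left out, a block for replicate number, limma-voom 3.58.1 and DESeq2 1.42.0. One gene of the lists is not reported here and is left out of their counts. No 2 libraries held identical counts.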

Additional observations from a re-analysis of the deposited data

Results flagged for a closer look

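In a group of 5 libraries, a value was set apart when the gap between the highest or lowest library and its neighbour exceeded 0.71 of the group's range (Dixon's test, 95%). Of 90 groups examined 11 were set apart, where chance gives about 1 in 20.

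Plau in WT was one, with WT 2 at 79.0 CPM, 43.2 CPM the next and 36.8 CPM the lowest (gap 0.849 of the range). Its ratios followed: WT 2 was highest for log2 Plau over Serpine2 (4.39, next 3.30, gap 0.773) and over Plat (3.32, next 2.18, gap 0.724). In WWv the highest log2 Plau over Serpine2 was that of WWv 1 (5.30, next 3.87, gap 0.827).

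Among the neighbouring genes, the highest WT library stood apart for Procr (154 CPM, next 43.3, gap 0.855), Igf2r (204 CPM, next 168, gap 0.798) and Ly6e (81.8 CPM, next 66.4, gap 0.817). In WWv the highest library stood apart for Serpina3n (93.3 CPM, next 34.8, gap 0.961) and Itga5 (1397 CPM, next 1128, gap 0.740), and the lowest for Pdgfc (14.2 CPM, next 21.9, gap 0.842) and Serpina3g (0.488 CPM, next 0.745, gap 0.832).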

How the results depend on the processing

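Plat and Plaur kept their direction and call under every alternative run, Plat at −1.06 to −0.87 and Plaur at 0.91 to 1.17. Leaving out 1 library gave 0.65 to 1.01 for Plau, 0.0640 to 0.33 for Serpine2, 0.04 to 0.21 for Serpinf1 and 2 to 4 of the 5 genes past the threshold; the cause of the changes in call was not tested. With WT 2 and WWv 1 both out Serpine2 passed (0.26). Calls over all genes numbered 3013 to 7127 with 1 library out, 7111 with both out and 7401 with limma-voom and sample quality weights.

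The list counts with 1 library out were 3 to 9 (plasminogen binding and inhibition), 2 to 8 (thrombin), 0 to 2 (PEDF receptors), 2 to 8 (serpins) and 3 to 9 (serine proteases). With sample quality weights these lists had 9, 8, 3, 8 and 10 calls and with both libraries out 10, 8, 1, 8 and 11; serine proteases had 8 with upper quartile scaling, library size only or DESeq2.

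With the longest transcript as length, the levels in WT and WWv were 6.31 and 3.20 CPM per kilobase for Plat, 38.9 and 77.8 for Plaur, 4.63 and 5.17 for Serpine2, and 377 and 407 for Serpinf1. Log2 Plau over Serpine2 was then 2.09 and 2.78, log2 Plat over Serpine2 0.44 and −0.65, and log2 Plau over Plat 1.65 and 3.43. With 1 library out, the sign turned near 0 for Plxdc2 (−0.13 to 0.000532, positive without WWv 1), Procr (−0.00888 to 0.99, negative without WT 4, −0.00176, or WWv 1) and Thbd (−0.20 to 0.0473, positive without WT 2).

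Deviations gave no clear sign that replicate numbers pair the libraries: same-numbered libraries had r of −0.09, −0.01, 0.04, −0.07 and 0.31, and only number 5 matched best with its own. With 1 library per number and group, low r cannot exclude that same-numbered cultures were prepared together. With the replicate block Plau was 0.80, Plat −0.98, Plaur 1.02, Serpine2 0.12 and Serpinf1 0.12, with no call changed among them, and 3636 genes passed against 4274.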
